A study of Mus musculus with 12 samples.

Results

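The EGF receptor family and its ligands were followed through a culture in which cartilage cells were moved from chondrogenic to osteogenic medium. The 10 genes, 7 EGF-type ligands (Areg, Ereg, Hbegf, Epgn, Tgfa, Btc, Egf) and 3 ErbB receptors (Egfr, Erbb2, Erbb3), were chosen by gene name from the 28244 genes listed, at a point when their values at all 4 time points were already known. Their levels, differences and calls are therefore given as a description, with no p-value, and support nothing beyond themselves. Murine mesenchymal progenitors were isolated from the heads and condyles of femurs and tibiae of C57/BL6 pups aged 5 or 6 days, pelleted, and kept for 7 days in chondrogenic medium and then for 21 days in osteogenic medium. Poly-adenylated RNA was sequenced with 3 replicates at each of D7 (before the switch), D8, D10 and D28, that is after 0, 1, 3 and 21 days of osteogenic medium. No group carried a genetic change, and every group shared the chondrogenic phase. No culture kept in chondrogenic medium was sequenced beside D8, D10 or D28, so osteogenic medium and time in culture cannot be told apart. The labels do not say that replicates came from separate cultures or animals, so the errors below measure only the spread between these samples.

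Values are the log2 of an equalized read count plus 1, as the authors deposited them. The original totals are not kept, but low values sit on discrete levels that were read as numbers of reads, and by this measure the D28 libraries were the deepest (median relative depth 1.27, against 0.955 at D7, 1.05 at D8 and 0.919 at D10). Such read numbers are inferred, and they carry differences between replicates as well as counting error. A gene was called between time points at a log2 difference of at least 1 with a Benjamini-Hochberg adjusted p under 0.05 from limma, fitted over the 17674 genes that reached log2 1 in 3 or more libraries. All 10 family members passed this filter, Epgn only through the D10 libraries. A lack of overlap between the libraries of the time points compared was common among all genes tested. Its share ran from 37.1% (D8 against D7) to 59.4% (D28 against D10). All 10 chondrocyte markers examined were detected at every time point, and Col2a1, the main collagen of cartilage, was at 20.92 in the mean at D7 and 19.87 at D10. In bulk pellets, a change in the number of cells of a type and a change in RNA per cell cannot be told apart.

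EGF-type ligands are made as membrane proteins and are released by ADAM proteases, and they act on cells nearby. Amphiregulin (Areg), TGF-alpha (Tgfa), EGF (Egf) and epigen (Epgn) bind EGFR, whereas epiregulin (Ereg), HB-EGF (Hbegf) and betacellulin (Btc) bind EGFR and also ERBB4. ERBB2 binds no known ligand and acts as a partner of the other receptors, and ERBB3 binds neuregulins but has little kinase activity of its own. In cartilage and bone, EGFR signalling is known for its part in growth plate remodelling and in the control of osteoblast maturation.

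Epgn, Ereg, Areg and Btc lie next to each other on mouse chromosome 5 (GRCm38), between positions 91027464 and 91402994, a span of 375.5 kb that holds 0 other protein-coding genes of the file. Areg occupies chr5:91139599-91148432 on the plus strand, Ereg chr5:91074622-91093646 on the plus strand, Epgn chr5:91027464-91035215 on the plus strand and Btc chr5:91357261-91402994 on the minus strand. The following promoters are those of Areg, Btc and Tgfa. Areg had its peak at D10, and Tgfa was lowest there. Btc, in the same gene group as Areg, also had its highest mean at D10 (4.16) but was not called in any comparison. Each promoter is the 250 bases before the transcription start in RefSeq (GRCm38.p6), 5′ to 3′ on the gene's strand. Capitals mark TGACG on either strand, which is the arm of the cAMP response element TGACGTCA.

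Areg, chr5:91139349-91139598, plus strand: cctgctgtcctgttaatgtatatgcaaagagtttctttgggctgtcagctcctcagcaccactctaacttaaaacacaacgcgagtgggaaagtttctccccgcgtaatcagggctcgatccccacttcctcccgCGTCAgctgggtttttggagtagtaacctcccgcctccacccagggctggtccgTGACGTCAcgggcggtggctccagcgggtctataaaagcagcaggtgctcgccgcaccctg
Btc, chr5:91402995-91403244, minus strand: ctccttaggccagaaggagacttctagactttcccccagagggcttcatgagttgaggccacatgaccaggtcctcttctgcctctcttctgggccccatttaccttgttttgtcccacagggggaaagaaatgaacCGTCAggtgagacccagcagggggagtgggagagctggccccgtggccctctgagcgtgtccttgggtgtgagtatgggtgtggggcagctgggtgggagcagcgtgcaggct
Tgfa, chr6:86194972-86195221, plus strand: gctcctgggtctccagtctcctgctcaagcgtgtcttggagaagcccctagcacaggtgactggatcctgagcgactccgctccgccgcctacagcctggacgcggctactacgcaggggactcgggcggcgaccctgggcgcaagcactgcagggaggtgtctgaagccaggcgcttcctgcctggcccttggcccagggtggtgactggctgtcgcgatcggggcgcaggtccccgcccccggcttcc

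The Areg window holds the full TGACGTCA, beginning 61 bases before the start, and a further TGACG match on the opposite strand 115 bases before it. The full TGACGTCA is present in 1.79% of the 32851 RefSeq mouse promoter windows of 300 bases (250 before to 50 after the start), and TGACG, which it contains, in 20.8% on either strand. Btc has 1 TGACG match, 113 bases before its start, Epgn has 1 at 101 bases and Erbb2 has 1 at 171 bases. The Tgfa, Egfr and Egf windows hold neither. The AP-1 sequence TGANTCA, found in 7.81% of windows, is in none of the windows of Areg, Btc, Epgn, Tgfa, Egf, Egfr and Erbb2. These matches describe the letters in the windows only.

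Areg went from almost no reads at D7 to one of the leading ligands at D10. At D7 it held 1, 0 and 0 reads in the 3 libraries (log2 values 0.94, 0 and 0). At D8 the log2 values were 3.45, 3.06 and 2.50, from 9, 6 and 5 reads. At D10 they reached 8.20, 6.86 and 7.49 (mean 7.52 ± 0.67, SD, n = 3). Every D10 library was thus far above every D8 library, and no D8 library overlapped D7. Since all D7 libraries were under 3 reads, the D10 level was at least 25.0-fold higher, computed against the highest 3-read level of any library (2.87), and the D8 level at least 1.09-fold higher. The D8 call therefore rests on few reads, and with low values set to that floor the difference was 0.25 and not called. At D28 the libraries held 7, 0 and 8 reads (log2 2.39, 0 and 2.52), and Areg fell by 5.88 ± 0.63 (SE) from D10 on the log2 scale. With low values raised to the 3-read level the difference between D10 and D28 was -4.645 and still called. The D28 library of replicate 2, with 0 reads, widened the fitted difference, which was -5.06 without it. Areg at D28 was 1.33 above D7, not called, and 2.15 above D7 and called once that library was left out.

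Ereg, next to Areg on the chromosome, showed the same order of time points at higher read numbers. Its log2 values were 3.07, 4.16 and 3.56 at D7, from 7, 18 and 8 reads, then 6.84, 6.31 and 6.05 at D8, and 8.91, 8.70 and 9.10 at D10 (mean 8.90 ± 0.20, SD, n = 3). It rose by 2.80 ± 0.32 (SE) from D7 to D8 and by 2.51 from D8 to D10, together 5.31 or 39.5-fold. At D28 the libraries were at 6.45, 5.59 and 5.63, which is 3.01 lower than D10 on the log2 scale and 2.29 higher than D7, both called. Unlike Areg, Ereg thus stayed above its D7 level at D28 in every library.

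Epgn, the nearest ligand gene to Ereg, was close to the limit of detection. It was at 0 in all 3 libraries of D7 and of D28, and held 0, 2 and 2 reads at D8. At D10 the libraries held 5, 9 and 6 reads (log2 3.54, 3.91 and 3.29). D10 was at least 1.63-fold higher than each of the other time points against the 3-read floor, and with low values raised to that floor the differences were 0.71 and no longer called. Zero reads do not show that the gene was silent at this depth.

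Btc, at the far end of the same gene group, was not called in any comparison. Its libraries held 2, 11 and 5 reads at D7 and 12, 7 and 12 reads at D10, with mean log2 values of 2.71 and 4.16. The difference of 1.45 ± 0.57 (SE) was not called, although it was called with D7 replicate 2, D10 replicate 2 or D8 replicate 1 left out (1.88, 1.74 and 1.45) and with low values raised to the 3-read level (1.01). From D10 to D28 the difference was -1.24, not called either, although it was called with low values raised or without D7 replicate 1.

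**Figure D1:**
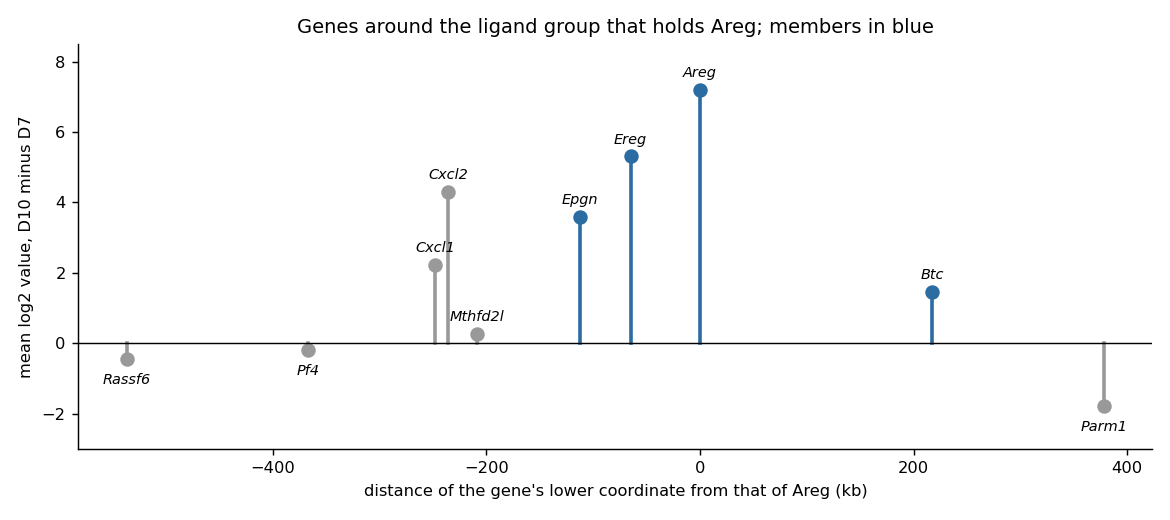
Genes within 500 kb of the chromosome 5 ligand group, plotted as the distance of each gene's lower coordinate from that of Areg (x axis, kb) against the difference of mean log2 values, D10 minus D7 (y axis); genes whose mean was under 3 at all time points are not drawn. Of the ligand genes (blue), Epgn, Ereg and Areg stand at 3.58 to 7.21 and Btc at 1.45. Mthfd2l beside them is close to 0, and Parm1 on the far side of Btc is below 0. Beyond Mthfd2l, Cxcl1 and Cxcl2 are above 0, and Rassf6 and Pf4 are below 0.

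The genes around the ligand group did not share 1 course. Mthfd2l, the gene next to Epgn, which encodes a mitochondrial folate enzyme, had a mean of 7.15 on the log2 scale before the switch and 7.42 at D10. Parm1, beyond Btc, was at 8.87 and 7.09. The chemokine genes Cxcl1 and Cxcl2, on the other side of Mthfd2l, were at 2.57 and 0.25 at D7 and at 4.79 and 4.55 at D10. These neighbours were named after their values were seen, and no test was made on them.

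Hbegf, on chromosome 18 (positions 36504927 to 36515805, minus strand), encodes a heparin-binding ligand and was the most abundant ligand per length until D10. Its log2 values were 9.63, 9.98 and 9.87 at D7 and 10.82, 11.01 and 10.69 at D8. At D10 they were 11.25, 11.87 and 12.06 (mean 11.73 ± 0.42, SD, n = 3), and at D28 8.71, 8.72 and 9.07. The 4 time points do not overlap, with D10 highest and D28 lowest. Hbegf rose by 1.02 ± 0.18 (SE) from D7 to D8, only just past the threshold. That call is lost with median-of-ratios scaling (0.97), without D7 replicate 1 (0.92) or without D8 replicate 2 (0.93). Over D7 to D10 the rise was 1.90 or 3.73-fold, and from D10 to D28 Hbegf fell by 2.89 on the log2 scale. The D28 mean was 0.99 under D7, short of the threshold, and past it without D7 replicate 1 (-1.09) or D28 replicate 3 (-1.11). From D8 to D10 the difference was 0.88, and 1.12 and called without D10 replicate 1.

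Tgfa, on chr6:86195223-86275719, ran in the opposite direction. Its log2 values were 9.60, 9.50 and 9.71 at D7, 8.75, 8.70 and 9.35 at D8, 8.44, 8.31 and 8.38 at D10, and 10.75, 10.91 and 10.77 at D28. The groups again do not overlap, and D10 was the lowest. Tgfa fell by 1.22 ± 0.15 (SE) from D7 to D10, and rose by 2.43 or 5.41-fold from D10 to D28. At D28 it was 1.21 above D7. The D8 step was -0.67, not called.

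Egf itself was low and varied between replicates. The libraries were at 5.35, 4.61 and 4.11 at D7, 4.62, 5.38 and 5.89 at D8, 5.93, 5.41 and 4.99 at D10, and 3.82, 3.84 and 4.53 at D28. D7, D8 and D10 overlap, and only the step from D10 to D28 was called, with a fall of 1.38 ± 0.42 (SE). This call is lost without D10 replicate 1, the highest library (-1.14).

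**Figure D2:**
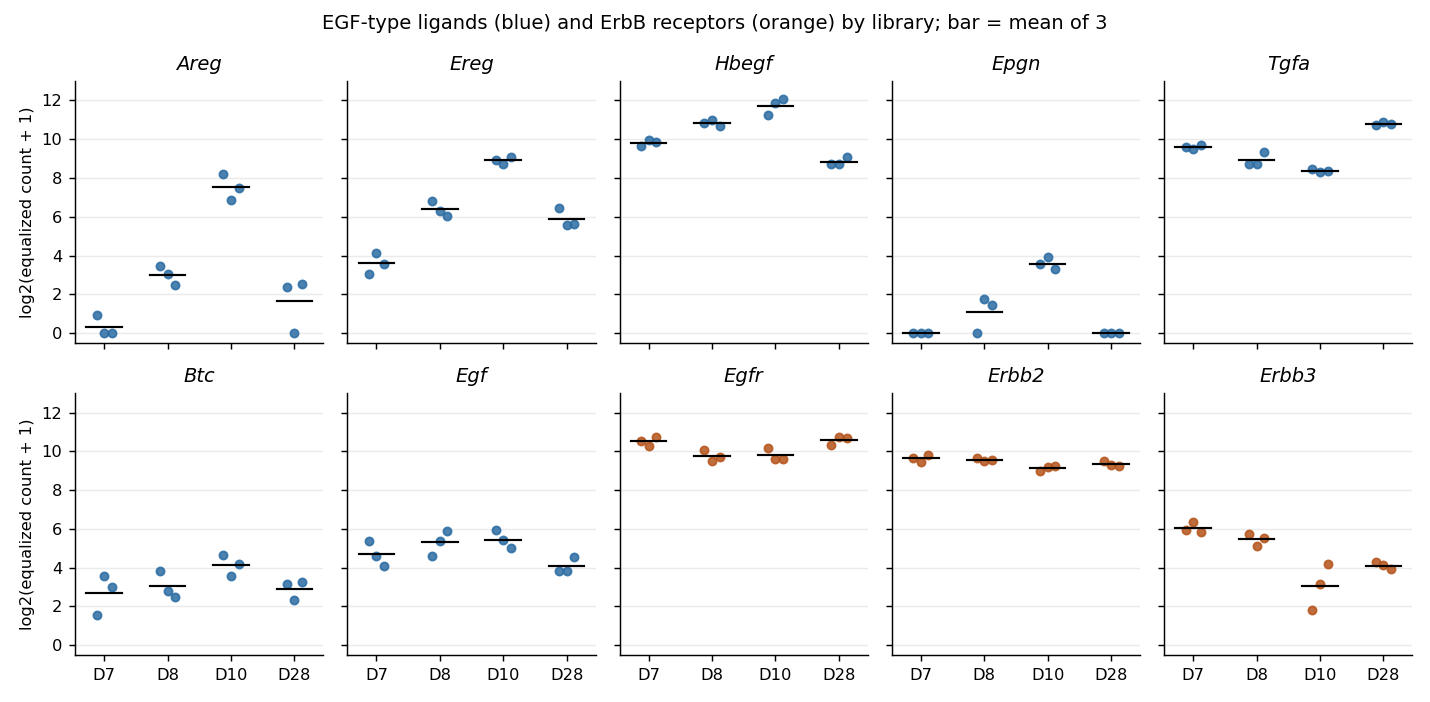
Log2 values (y axis) of the 7 ligands (blue) and 3 receptors (orange) in each library at D7, D8, D10 and D28 (x axis), with a bar at the mean of 3. Areg, Ereg, Hbegf and Epgn are highest in the D10 libraries, Tgfa is lowest there, and Egfr and Erbb2 stay between 8.96 and 10.74.

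Neither Egfr nor Erbb2 was called in any comparison, whereas Erbb3 was. Egfr (chr11:16752203-16918158), which binds the ligands above, had log2 values of 10.54, 10.27 and 10.72 at D7. They were 10.06, 9.50 and 9.72 at D8, 10.17, 9.61 and 9.59 at D10, and 10.31, 10.74 and 10.67 at D28. D8 and D10 lay under D7 without overlap, but the differences, -0.75 ± 0.18 (SE) and -0.72 ± 0.18, stayed short of the threshold of 1, as did the difference of 0.78 from D10 to D28. Between D28 and D7 it was 0.06, with overlapping libraries.

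Erbb2 (chr11:98412470-98437716), the partner receptor, had the smallest range of means among the 10 genes. It had a mean of 9.64 ± 0.19 (SD, n = 3) at D7, 9.57 ± 0.07 at D8, 9.13 ± 0.15 at D10, then 9.35 ± 0.13 at D28. The D10 libraries, at 8.96, 9.20 and 9.22, lay under all D7 and D8 libraries, by 0.51 and 0.45 in the means, and no comparison was called.

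Erbb3 (chr10:128567523-128589652) was the receptor that fell. It had 55, 90 and 44 reads at D7 (log2 5.95, 6.36 and 5.86) and 49, 27 and 49 reads at D8. At D10 there were 1, 5 and 12 reads (log2 1.81, 3.17 and 4.21), so its replicates were the most scattered there. At D28 there were 30, 24 and 22 reads (log2 4.29, 4.12 and 3.91). Erbb3 fell by 2.40 ± 0.48 (SE) from D8 to D10 and by 3.00 from D7 to D10, and at D28 it was still 1.95 lower than D7. Without D10 replicate 1, which held 1 read, the differences to D10 were -1.77 and -2.37 and both calls remained. The difference of 1.05 from D10 to D28 was not called, and was 1.62 and called without D10 replicate 3. Erbb3 is also a gene of Schwann cells. Of 5 Schwann cell markers, Sox10 and Mbp fell from D7 to D10 and 0 rose, with Sox10 at mean log2 values of 5.64 at D7, 5.67 at D8, 3.84 at D10, then 1.96 at D28. None of the 5 was at 0 in any group, and their summed level, as log2, was 12.06 to 12.23 at D7, 11.01 to 11.78 at D10 and 12.87 to 13.32 at D28. Their part in the course of Erbb3 was not tested.

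Counted together, 3 of the 10 genes were called higher (Areg, Ereg, Hbegf) and 0 lower at D8 against D7, where 3.23% of all genes tested were called higher and 3.81% lower. From D8 to D10, 3 were higher (Areg, Ereg, Epgn) and 1 lower (Erbb3), where the shares over all genes were 4.08% and 5.58%. Between D7 and D10, 4 were higher (Areg, Ereg, Hbegf, Epgn) and 2 lower (Tgfa, Erbb3), beside 8.5% and 10.4% of all genes. Between D10 and D28, 1 was higher (Tgfa) and 5 lower (Areg, Ereg, Hbegf, Epgn, Egf), beside 13.8% and 13.7%. Between D7 and D28, 2 were higher (Ereg, Tgfa) and 1 lower (Erbb3), beside 8.63% and 8.66%. Nothing is read from these shares, because the genes were picked with the same comparisons known. The comparisons also share libraries, so a gene with a peak at D10 can appear in more than 1 of them. The median log2 difference of the 10 genes was 1.10 between D7 and D10, against 0.05 over all genes tested, and -1.31 between D10 and D28, against -0.10.

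**Figure D3:**
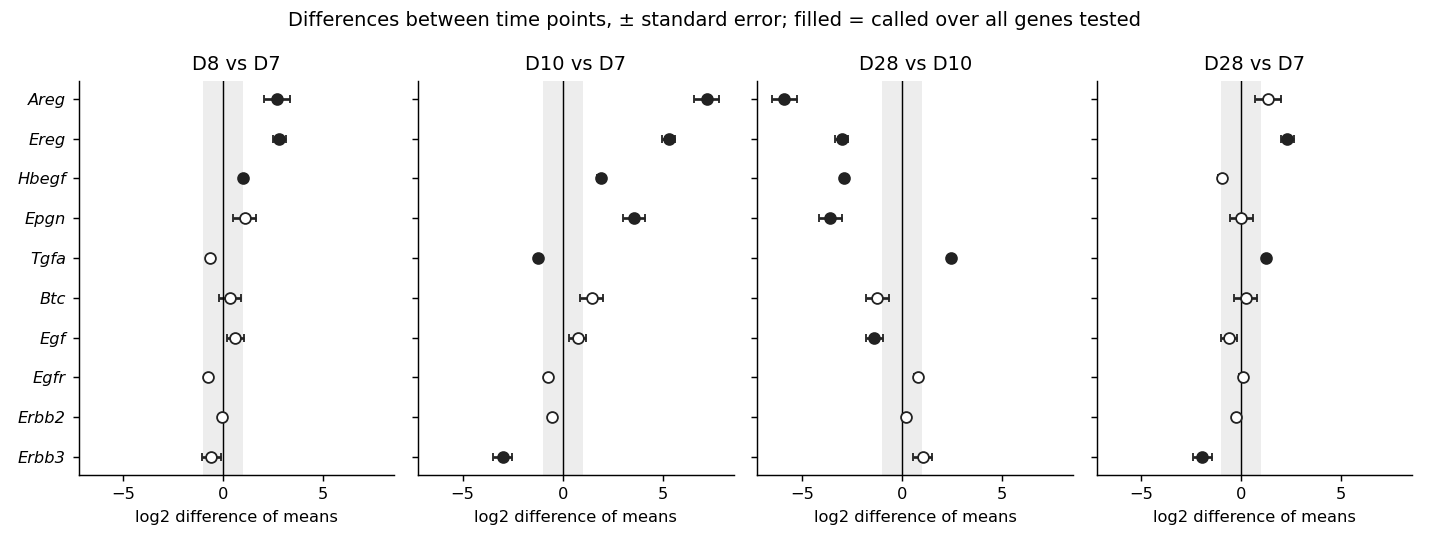
Log2 difference of means with its standard error (x axis) for each of the 10 genes (y axis) in 4 comparisons; filled points were called over all genes tested, open points were not, and the grey band spans differences under 1. Areg, Ereg, Hbegf and Epgn lie to the right for D10 against D7 and to the left for D28 against D10, and Tgfa does the reverse. The fitted values of Areg and Epgn depend on libraries with 3 reads or fewer and are not bounds.

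Markers of other cells moved over the same time points. Of the 10 chondrocyte markers, 7 fell from D7 to D10 and 0 rose, where 10.4% of all genes fell. Col2a1 held the top value of every library at D7, D8 and D28, so its value is a rank set by the equalization. The summed level of the other 9, as log2, was 19.33 to 19.43 at D7, 18.22 to 18.38 at D10 and 18.94 to 19.14 at D28. Epithelial cells are a common source of Areg, Ereg and Epgn, and of 6 epithelial markers only Krt18 was called higher at D10 against D7 or D8. Epcam and Krt14 were called lower at D10 than at D8, and Krt5 and Krt14 were at 0 in all D10 libraries. The summed epithelial level, as log2, was 6.26 to 7.05 at D7, 7.26 to 7.84 at D8, 8.46 to 8.67 at D10 and 5.43 to 7.72 at D28. Most of the D10 sum was Krt18, with a mean of 8.31 there and 4.98 at D7. From D7 to D10, the interval in which Tgfa fell, 4 of 6 adipocyte markers were called lower (Adipoq, Cidec, Fabp4, Plin1). Their summed level was 12.58 to 12.7 at D7, 11.27 to 11.41 at D10 and 15.53 to 15.96 at D28. All 6 adipocyte markers rose from D10 to D28, the interval in which Tgfa rose. In the same interval 4 of 6 macrophage markers rose (Csf1r, Adgre1, Lyz2, Tyrobp) and Cd68 fell, with a summed level of 9.67 to 10.49 at D10 and 9.76 to 12.14 at D28. Of 5 skeletal muscle markers, 4 fell from D7 to D10 and all 5 were lower at D28 than at D7, with a summed level of 10.91 to 11.35 at D7, 7.35 to 7.97 at D10 and 3.32 to 5.58 at D28. Of 8 osteoblast markers 3 rose and 4 fell from D7 to D10, and of 5 endothelial markers 1 (Kdr) rose. The part of these cells in the ligand values was not tested.

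Between genes, levels were compared per kilobase of exon, as the unlogged value divided by the joined length of all annotated exons (GENCODE M21). On this scale the 7 ligands together had 290.1 to 327.9 per kb at D7, 469.8 to 521.7 at D8, 931.7 to 1227 at D10 and 379.7 to 399.6 at D28. The 3 receptors together had 256.4 to 332.2, 208.4 to 256.8, 183.4 to 197.5 and 253.5 to 274.2 per kb. The ligand sum was thus highest at D10, where the receptor sum was lowest, and in neither case did D10 overlap another time point.

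Hbegf and Tgfa accounted for nearly all ligand transcripts at D7, with medians of 59.0% and 39.3% of the ligand level per kb. At D8 Hbegf made up 77.8% and Tgfa 13.7%. At D10 Hbegf was at 72.1%, Areg at 12% (range 9.22% to 26.0%), Ereg at 10.8% and Tgfa at 4.74%. At D28 Tgfa was the leading ligand with 70.0%, and Hbegf followed with 22.8%. The ratio of Hbegf to Tgfa per kb ran from 1.38 to 1.87 at D7, 3.41 to 6.68 at D8, 9.45 to 17.3 at D10, then 0.293 to 0.412 by D28, with no overlap between time points. Btc, Egf and Epgn together were a minor share throughout, each under 1.3% of the ligand level in every library.

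**Figure D4:**
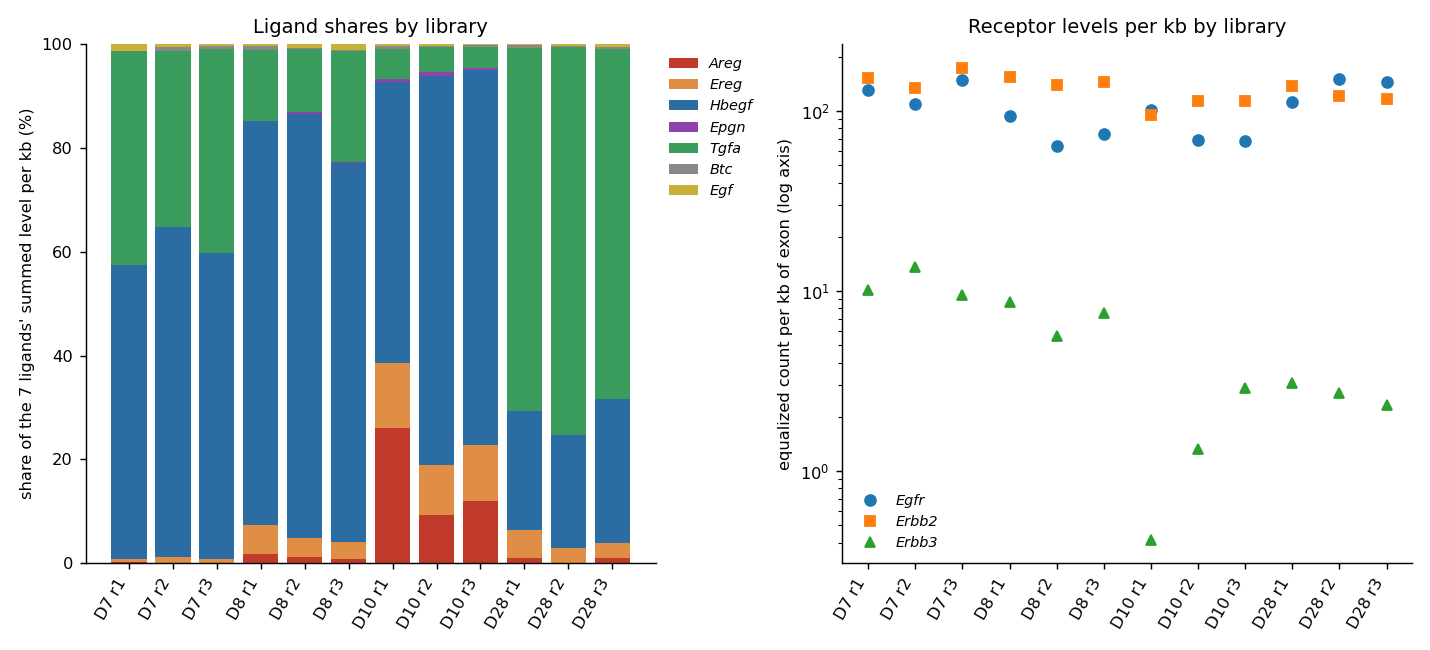
Left, share of each ligand in the summed ligand level per kb (y axis, %) in each library (x axis); right, level of the 3 receptors per kb on a log axis in each library. Tgfa (green) shrinks from 33.9% to 41.1% at D7 to 4.17% to 5.72% at D10 and takes 67.4% to 74.7% at D28, and Erbb3 (triangles) stays far below Egfr and Erbb2.

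The order of levels per kb changed accordingly. At D7 Hbegf, Erbb2, Egfr and Tgfa came first, with medians of 193, 152, 131 and 119 per kb, and each of these overlapped its neighbour in the order. Erbb3 followed at 10.1 per kb, separated from Tgfa above it and from Ereg below it. At D8 Hbegf stood apart at 374 per kb, followed by Erbb2 at 145 and by Egfr and Tgfa, which overlapped. At D10 Hbegf was at 773 per kb, and Areg (147), Ereg (116), Erbb2 (113) and Egfr (69.1) followed, each overlapping its neighbour among these 4, while Tgfa (51.2) lay apart below Egfr. Erbb3 was last at 1.33 per kb, not separated from Egf. At D28 Tgfa led at 269 per kb, ahead of Egfr (144) and Erbb2 (121), which overlapped, and of Hbegf (87.1). The ratio of Egfr to Erbb2 per kb was 0.813 to 0.863 at D7, 0.459 to 0.609 at D8, 0.595 to 1.07 at D10 and 0.806 to 1.25 at D28, and D10 replicate 1 alone gave the upper value at D10.

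The remaining receptor and ligands of the ErbB system are Erbb4 and the neuregulins Nrg1 to Nrg4. These genes and the other pathway genes below were likewise chosen with earlier results known. Their adjusted p-values therefore describe these data and are not independent tests. Nrg2 was the one that rose clearly, from 2.03, 2.79 and 2.46 at D7 to 6.64, 7.58 and 6.86 at D28, a log2 difference of 4.60 ± 0.54 (SE, limma, adjusted p = 7.4e-06). The D7 libraries held 3, 6 and 3 reads of Nrg2, and with low values raised to the 3-read level the difference was 4.15 (limma, adjusted p = 0.00026). Erbb4 had a mean of 2.49 ± 1.05 (SD, n = 3) at D7 and 4.07 ± 0.82 at D28, a difference of 1.57 (limma, adjusted p = 0.037). It was no longer called without D7 replicate 1, D7 replicate 3 or D28 replicate 1 (limma, adjusted p between 0.065 and 0.17), nor with low values raised to the 3-read level (0.073). Nrg1 was at 4.14, 3.27 and 3.26 at D7 and at 3.07, 0 and 1.06 at D28, a difference of -2.18 (limma, adjusted p = 0.03), and it was not called without D7 replicate 1, D28 replicate 2 or D28 replicate 3 (limma, adjusted p between 0.082 and 0.14), nor with low values raised (0.5). The difference was -3.03 without D28 replicate 1 and still called, and -1.49 without D28 replicate 2. At D10 Nrg1 was at 6.31, 3.92 and 4.58, and it fell by 3.56 ± 0.74 (SE) from there to D28 (limma, adjusted p = 0.00078). That call remained without each of the 12 libraries in turn and with low values raised (-1.99), although the difference was -2.87 without D10 replicate 1 or D28 replicate 2 and -4.40 without D28 replicate 1. Nrg4 was between 4.37 and 5.44 in the mean and was not called in any comparison. Nrg3 was at 0 in every library and was not tested.

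A list of 58 genes of the pathway outside the 10, Erbb4 and the neuregulins included, was examined, of which 57 could be tested. Called genes numbered 2 higher and 0 lower for D8 against D7, 5 and 2 for D10 against D8, 9 and 5 for D10 against D7, 4 and 9 for D28 against D10, and 4 and 4 for D28 against D7. The shares over all genes, higher and lower, were 3.23% and 3.81%, 4.08% and 5.58%, 8.5% and 10.4%, 13.8% and 13.7%, and 8.63% and 8.66% in the same order. Their median log2 difference between D7 and D10 was 0.25, against 0.05 over all genes tested.

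Of 10 genes for the release of ligands, 1 rose and 1 fell from D7 to D10, again beside 8.5% and 10.4% of all genes. Adam19, a membrane protease, rose by 1.25 ± 0.16 (SE, limma, adjusted p = 1.4e-05), and Adam12, a protease able to release HB-EGF, fell by 1.06 ± 0.16 (limma, adjusted p = 7.9e-05). The call for Adam12 is lost without D7 replicate 1 (-0.99) or D10 replicate 1 (-0.88). By D28 Adam12 was 1.27 under D7 (log2 difference -1.27, limma, adjusted p = 1.5e-05), and Rhbdf2, a partner of the protease ADAM17, fell by 1.33 (limma, adjusted p = 2.6e-05).

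Of 12 genes that restrain the receptors or turn them over, 1 rose and 2 fell from D7 to D10, where the shares over all genes were 8.5% and 10.4%. Errfi1, an inhibitor of the EGFR kinase, rose by 1.02 ± 0.15 (SE, limma, adjusted p = 6.5e-05), a call lost with median-of-ratios scaling (0.94) or without D10 replicate 1 (0.91). Lrig3, a membrane protein of the family that includes the ErbB inhibitor LRIG1, fell by 1.34 ± 0.12 (limma, adjusted p = 3.1e-07). Cblc, a ubiquitin ligase gene at low levels, fell by 2.08 ± 0.60 (limma, adjusted p = 0.011), with a difference of -1.39 that was not called without D10 replicate 1 and of -2.78 without D10 replicate 3. With low values raised the Cblc difference was -0.59 and not called.

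Among 24 adaptors and signal relay genes, 3 rose and 2 fell from D7 to D10, beside the same 8.5% and 10.4%. The docking protein gene Gab2 rose by 1.95 ± 0.23 (SE, limma, adjusted p = 7.5e-06), the receptor substrate gene Eps8 by 1.43 ± 0.12 (adjusted p = 2.8e-07) and Nras, a small GTPase, by 1.12 ± 0.09 (adjusted p = 2.2e-07). Gab1, the relative of Gab2, fell by 1.17 ± 0.16 (limma, adjusted p = 3.8e-05). Grb7, an adaptor that binds ERBB2, was called lower although no D7 or D10 library exceeded the highest 3-read level, so no fold is given. Its call was lost when any of 5 libraries was left out (D7 replicates 1 and 2 and all D10 libraries). Between D10 and D28, 2 of the 24 rose and 3 fell, beside 13.8% and 13.7% of all genes. Gab1 rose by 1.73 ± 0.16 (SE, limma, adjusted p = 3.9e-07), and Mapk3, the gene of the kinase ERK1, named after its values were seen, by 1.06 (adjusted p = 8.5e-07). Gab2, Eps8 and Nras fell, with log2 differences of -2.06, -1.28 and -1.11 (Nras -0.98 and not called with median-of-ratios scaling), and at D28 none of the 24 was called against D7, beside 8.63% and 8.66% of all genes.

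Of 7 response genes, 4 rose from D7 to D10 and 0 fell, beside 8.5% and 10.4% of all genes. Dusp6, a phosphatase that acts on ERK, rose by 2.45 ± 0.18 (SE, limma, adjusted p = 5.1e-08), from a mean of 7.00 to 9.44. Egr1, an immediate early transcription factor, rose by 1.96 ± 0.19 (adjusted p = 9e-07), and Phlda1 by 1.94 ± 0.15 (adjusted p = 8.9e-08). The AP-1 member Fosl1, named after its values were seen, rose by 1.85 ± 0.29 (adjusted p = 0.0001). At D28 Dusp6 and Phlda1 were still above D7, by 2.02 and 1.19, whereas Egr1 fell by 1.98 from D10 and Plaur, the urokinase receptor gene, was 1.11 under D7 (log2 difference -1.11, limma, adjusted p = 0.00028). The Plaur call is lost without D7 replicate 3 (-0.99) or D28 replicate 3 (-0.95). These genes respond to many signals besides EGF receptors.

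**Figure D5:**
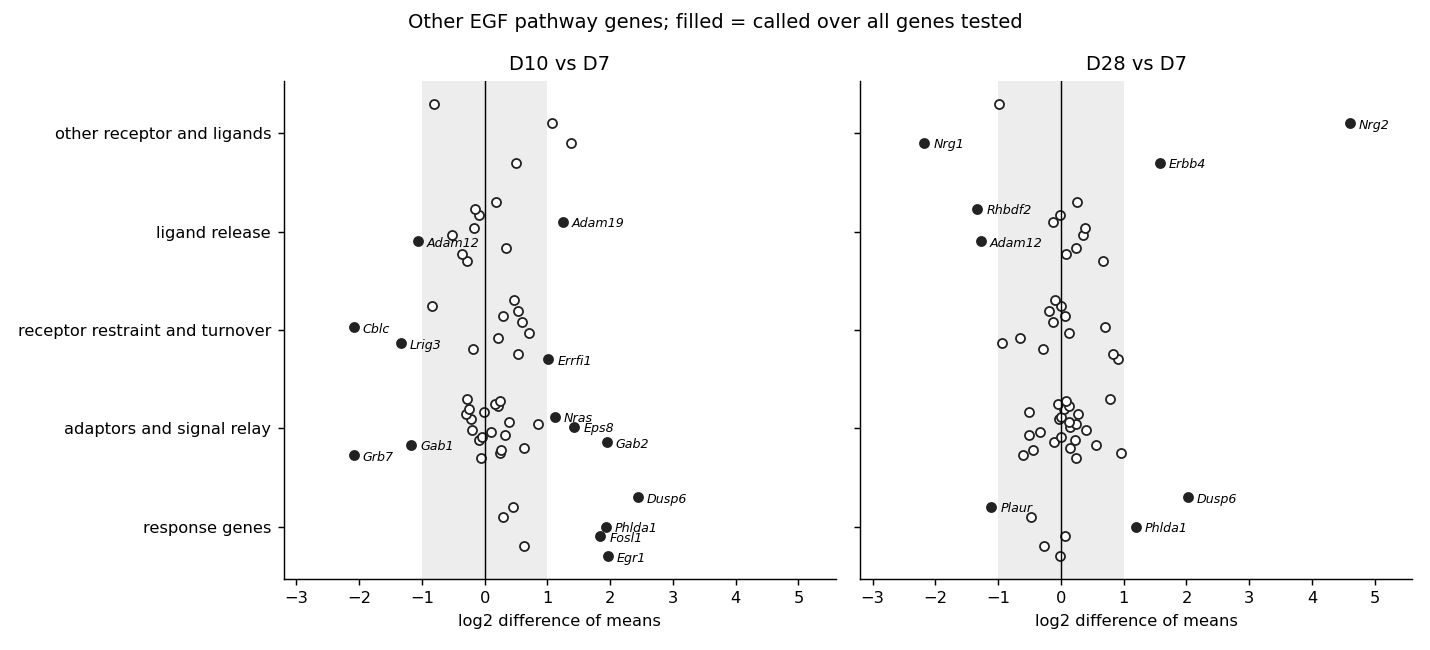
Log2 difference of means (x axis) of the other EGF pathway genes in 5 functional groups (y axis), for D10 against D7 (left) and D28 against D7 (right); filled points, with names, were called over all genes tested, and the grey band spans differences under 1. Of the response genes, all 7 lie to the right of 0 at D10 and 4 of them are filled, and none of the 24 adaptor and relay genes is filled at D28.

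Across the 12 libraries, the genes whose values ran most like those of Areg were Rasa2 (Pearson r = 0.979), Dgkd (0.978), Eps8 (0.978), Rtn4 (0.977) and Smox (0.975), among 11908 genes compared. Within the family, Ereg (0.924) and Epgn (0.901) were the nearest to Areg. The genes most like Egfr were Pard6g (0.946), Ebf3 (0.937), Tmem229b (0.935), Arid5b (0.933) and Lhfp (0.930), and the family members at the extremes were Tgfa (0.767) and Hbegf (-0.827). The 12 points fall into 4 time points of 3 libraries, so these coefficients mainly describe the differences between time points and carry no test.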

How the data were processed

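RNA sequencing of the 12 pellet libraries was taken from the gene table of the study. According to the study's methods and the submitters' processing notes, the authors trimmed reads with Trimmomatic 0.36, aligned them with HISAT2, annotated them with Cufflinks, counted them per gene with HTSeq, and then merged, equalized and transformed the counts in Matlab. The deposited values are therefore log2 values, the log2 of the equalized count plus 1, with replicates kept apart. Sorted, the libraries hold almost the same values, as quantile normalization would leave them, so levels are relative within a library. The processing notes name GRCm38, and the supplementary methods name a human build. Whether counting used strand is not given in the sources used here.

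Low values were converted to read numbers by ranking the distinct levels within each library, which was possible up to at least 42 reads. On the log2 scale 1 read lay between 0.50 and 1.81, and 3 reads at no more than 2.87. Relative depth came from 562 genes. Genes under the filter (10570, of which 7935 were at 0 everywhere) were not tested. The limma 3.58.1 package in R 4.3.3 fitted 1 mean per time point with a variance trend (8 residual and 7.23 prior degrees of freedom), and two-sided p-values were adjusted by Benjamini-Hochberg over 17674 genes. The fit was tested on simulated data with known changes. Positions came from GENCODE M21. Summaries and figures were made with Python 3.11.15, pandas 2.3.3, numpy 2.4.6 and matplotlib 3.10.9.

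The members, the pathway list, the marker lists and the naming rule were chosen with earlier results of these data known. Named were all 10 members, Erbb4 and the neuregulins, in each pathway group the 3 largest called changes in each direction for D10 or D28 against D7, and the 5 genes most like Areg and Egfr, predicted genes left out. RefSeq promoters were matched by symbol for 7 of the 10 members and not for Ereg, Hbegf and Erbb3. Alternatives were 2 other filters, median-of-ratios scaling, a pseudocount of 0.1, low values raised to the 3-read level, a variance prior without a trend, the study's own rule (an unadjusted per-gene p), a replicate block, other thresholds and each library left out in turn. No sequencing batch or date is given in the labels, so batches could not be examined.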

Additional observations from a re-analysis of the deposited data

How the results depend on the processing

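Of the 50 member comparisons, 22 were called, 16 kept their call in every alternative other than a threshold of 2, and 0 called values changed sign. With the adjusted p alone, 5 members were called for D8 against D7 and 7 for D10 against D8, and with a log2 threshold of 2, 1 was called for D28 against D7. For the other pathway genes the adjusted p alone gave 14, 24, 29, 41 and 22 calls (D8 against D7, D10 against D8, D10 against D7, D28 against D10, D28 against D7), and the threshold of 2 gave 0, 0, 3, 4 and 3. With 1 library left out, pathway calls ranged from 2 to 4 for D8 against D7 (4 without D8 replicate 2), from 4 to 7 for D10 against D8 (4 without D10 replicate 1), from 10 to 14, from 12 to 15 and from 6 to 10, and member calls from 2 to 3, 4 to 5, 6 to 7, 5 to 7 and 3 to 4. Changes of sign affected only uncalled log2 differences. Left-out libraries gave -0.24 to 0.77 for Btc at D8 and -0.37 to 0.64 at D28 against D7 (-0.046 with low values raised). They gave -0.19 to 0.44 for Egf and -0.16 to 0.18 for Egfr at D10 against D8, -0.054 to 0.198 for Egfr at D28 against D7, and -0.158 to 0.032 for Erbb2 at D8 against D7. The cause was not tested.

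Replicate numbers did not pair the libraries (correlations of deviations -0.0583 to 0.0665 for equal numbers, with 3 of 12 libraries correlating best with their own number). The replicate block left the member counts at 3, 4, 6, 6 and 3 and gave 2, 8, 15, 13 and 8 pathway calls. Fewer than about 10 reads per library in at least 1 library limit what can be said of Epgn, Btc, Areg outside D10, Ereg at D7 (the baseline of its fold changes) Erbb3 at D10, Erbb4 outside D28, Nrg1, and Nrg2 outside D28.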
